A study of Mus musculus with 18 samples.

Results

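The comparison described here is between mouse hearts 2 weeks after a single radiation dose and hearts that were not irradiated. It was made with 12 of the 18 mice of the series, chosen by their group labels: 6 controls and 6 mice at 2 weeks post-IR. The other 6 mice, at 6 weeks post-IR, entered only as the third group of the same fit and in a last comparison between the time points. All mice were CD-1, an outbred stock, male and female and at least 8 weeks old. Irradiated mice received 25 Gy to the heart under isoflurane, and controls had the anesthesia without the dose. The labels name the septum as the tissue and gamma rays as the radiation, whereas the methods of the study name tissue of the ventricles, X-rays, and imaging of the sham mice. No label gives the sex of a single mouse or the time at which the controls were taken. Each mouse gave 1 library of heart RNA, and the p-values measure the spread between these mice.

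Ionizing radiation breaks DNA, and the transcription factor p53 responds to such breaks by raising genes that halt the cell cycle, start cell death or repair the damage. The heart is made mostly of myocytes by volume, which rarely divide, and of endothelial cells, fibroblasts, mural cells and macrophages, which can. Irradiated vessels are known for later loss of capillaries and for attracting leukocytes, and damaged nuclei can also set off an interferon response.

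Gene levels are given in CPM, which are the estimated counts of a gene relative to the effective library size that TMM normalization gives, so that levels can be compared between mice but not between genes of different length. Libraries held 12202905 to 15501019 counts in controls and 12963022 to 14941625 at 2 weeks. They did not differ detectably in size (exact permutation test over mice, two-sided, P = 0.738). The TMM factor was higher at 2 weeks (median 1.02 against 0.897, exact permutation P = 0.00433, adjusted over 5 such values 0.0216). Mitochondrially encoded genes took a smaller share of the counts at 2 weeks (median 20.2% against 23.2%, exact permutation P = 0.0108, adjusted 0.0244). More genes were detected at 2 weeks (median 16690 against 16223, exact permutation P = 0.0152, adjusted 0.0244). The 10 highest genes took a smaller share of the counts (median 29.7% against 31.6%, exact permutation P = 0.0195, adjusted 0.0244). Apart from library size, all of these values move with the group, and their part in the results below was not tested. Samples taken from the same heart hold many cell types, and fewer cells of a type and less RNA per cell cannot be told apart in bulk RNA. Defining genes of ventricular myocytes summed to between 23002 and 39649 CPM in controls and between 26943 and 34634 at 2 weeks, and none of the 5 was called. Those of skeletal muscle stayed at or under 1.31 CPM in every mouse, and none of the 3 lung epithelial genes reached the level needed for a test.

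The groups separated when all genes were used. On the first principal component of all genes tested (18.7% of the variance) the irradiated mice lay between 9.35 and 31.0 and the controls between -47.7 and 7.55. Control 3 lay farthest from the irradiated mice and control 4 nearest. On the second component (14.5%) mice 1 to 3 of both groups lay between 2.58 and 32.2, and mice 4 to 6 between -32.7 and -4.11. Counts of Y-linked genes split the 12 mice in the same way, with at most 19 and at least 1754. Control 4 also had the highest Col1a1, the main fibrillar collagen chain, at 899 CPM against at most 326 in the other controls. Its macrophage genes were the highest of the controls as well. Counts of calls are therefore given also with single mice left out, and without controls 1 and 4.

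Of 30072 genes in the table, 15054 had at least 0.23 CPM in at least 6 mice and were tested with edgeR's quasi-likelihood test. At 2 weeks, 465 genes were higher (3.09% of those tested) and 290 were lower (1.93%) at an adjusted P under 0.05 (Benjamini-Hochberg), and such genes are called higher or lower below. With an absolute log2 fold change (log2FC) above 1 as well, 111 genes rose (0.737%) and 25 fell (0.166%). The values of the 12 mice did not overlap between the groups for 487 of all genes tested (3.24%), for 57 of the 111 and for 11 of the 25. Nearly all of the 136 genes past both thresholds encode proteins, 104 of those that rose and 24 of those that fell. The 136 calls became 85 without control 3, 90 without control 6 and 253 without controls 1 and 4, and 76 of the 136 kept an adjusted P under 0.05 whichever of the 12 mice was left out. The 755 calls without the fold change threshold became 453 and 451 without control 3 and control 6, and 466 and 474 without mouse 5 and mouse 6 at 2 weeks. The balance of directions depended on the scaling. With library size in place of TMM, 1707 genes were higher and 82 lower, and the median of all genes tested moved from -0.0015 to 0.15. All 136 genes kept their sign under that scaling and under log2(TPM + 1).

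**Figure D1:**
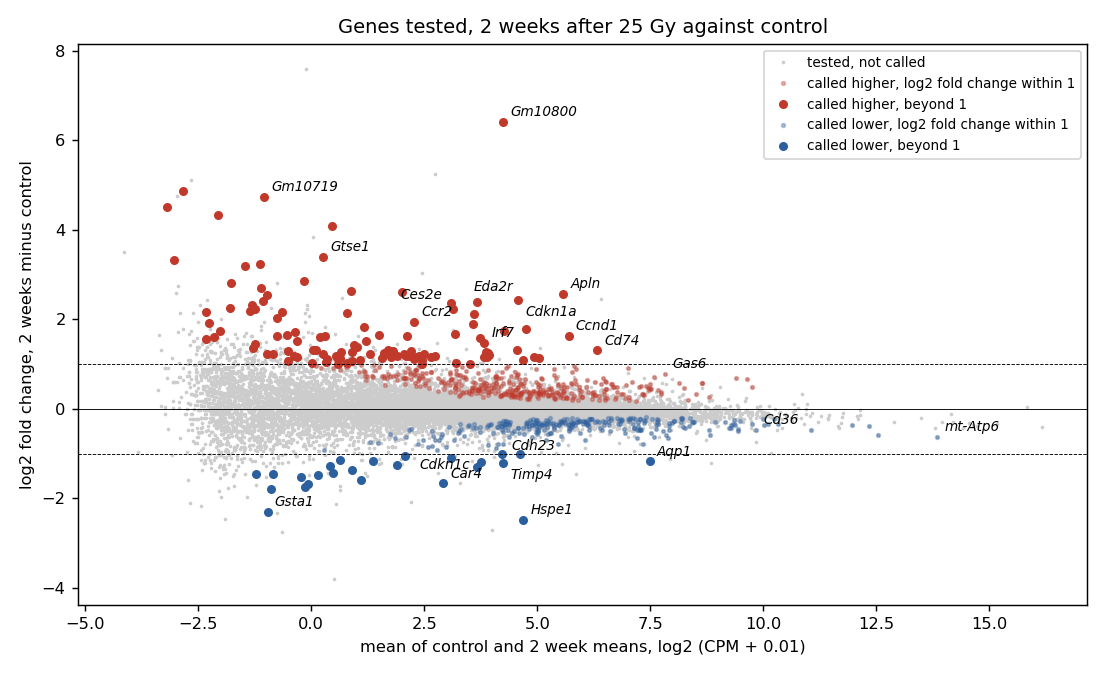
Log2FC at 2 weeks over control (vertical axis) against the mean level of the 2 groups in CPM on a log2 scale (horizontal axis). Each point is 1 of the 15054 genes tested, large red and blue points are the 111 and 25 genes past both thresholds, small coloured points passed the adjusted P alone, and dashed lines mark log2FC values of 1 and -1. Most large changes are increases, and the few strong decreases include Aqp1, Car4 and Hspe1.

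Many genes that p53 is known to raise were higher at 2 weeks. Of 45 tested targets in the list used, 21 were called higher and none lower, the groups did not overlap for 17, and the median log2FC was 0.49, beside -0.0015 for all genes tested. Over all genes tested, 3.09% were called higher, 1.93% lower and 3.24% had no overlap, and every list count below stands beside these shares. Cdkn1a (ENSMUSG00000023067, chromosome 17, 29090976 to 29100727 in GRCm38), which encodes the CDK inhibitor p21, was at 3.25 to 12.8 CPM in controls (median 6.58) and at 23.7 to 51.4 CPM at 2 weeks (median 42.5). Every irradiated mouse was thus above every control, and the log2FC was 2.43 (SE 0.30, adjusted P = 0.000121). Phlda3 (ENSMUSG00000041801, chromosome 1, 135766119 to 135769136), an inhibitor of the kinase AKT, was at 3.42 to 5.67 CPM in controls and 15.8 to 22.8 CPM at 2 weeks (medians 4.51 and 21, log2FC 2.11, SE 0.14, adjusted P = 3.64e-08). The lowest irradiated mouse had more than the highest control for Eda2r as well, a TNF receptor family member (ENSMUSG00000034457, chromosome X, 97333840 to 97377216). Its level went from 2.59 to 5.40 CPM (median 3.65) up to 14.4 to 25.6 CPM (median 21.8), a log2FC of 2.40 (SE 0.17, adjusted P = 5.79e-08). Sesn2, a stress sensor that restrains mTORC1, was at 3.33 to 7.15 CPM in controls and 17.0 to 20.3 CPM at 2 weeks (log2FC 1.90, adjusted P = 6.08e-08). Its 6 irradiated mice lay closer together than those of Cdkn1a.

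Target genes that promote cell death rose next to those that stop division. Bax, which opens the outer mitochondrial membrane, was at 6.30 to 10.7 CPM in controls and 18.6 to 23.9 CPM at 2 weeks (log2FC 1.24, SE 0.11, adjusted P = 1.11e-06). Bbc3, which encodes the BH3-only protein PUMA, was at 2.50 to 4.36 CPM and then 6.10 to 7.78 CPM (log2FC 1.15, adjusted P = 0.00213). Neither gene's groups overlapped. Pmaip1, another BH3-only gene, had at most 0.278 CPM in controls and 0.561 to 1.17 CPM after the dose (adjusted P = 0.0221). Zmat3, an RNA-binding protein, and Trp53inp1, a cofactor of p53, had log2FC values of 1.16 and 1.08 (adjusted P = 6.33e-06 and 5.14e-05). Low genes changed by larger factors with larger errors: Gtse1, which restrains p53, was at 0 to 0.347 CPM in controls and 0.589 to 4.92 CPM at 2 weeks (log2FC 3.39, SE 0.74). Celf5, an RNA-binding protein, went from at most 0.976 CPM to between 2.03 and 4.69 CPM (log2FC 2.64, SE 0.38). Mdm2, the ubiquitin ligase that removes p53, overlapped between groups, with 48.2 to 61.2 CPM in controls and 56.6 to 77.8 CPM at 2 weeks (log2FC 0.31, SE 0.08, adjusted P = 0.0364). It kept its call in 4 of the 12 fits that each left out 1 mouse. Not every target moved: Ccng1 was at 687 to 892 CPM in controls and 586 to 800 CPM after the dose (log2FC -0.23, adjusted P = 0.311), and Fas was at 1.56 to 5 and 2.97 to 5.5 CPM (adjusted P = 0.62). Trp53 itself was at 16.1 to 23 CPM in controls and 26.4 to 30.9 CPM at 2 weeks (log2FC 0.50, adjusted P = 0.00134). With single mice left out, 17 to 22 of the targets were called, and 17 were called in every such fit.

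**Figure D2:**
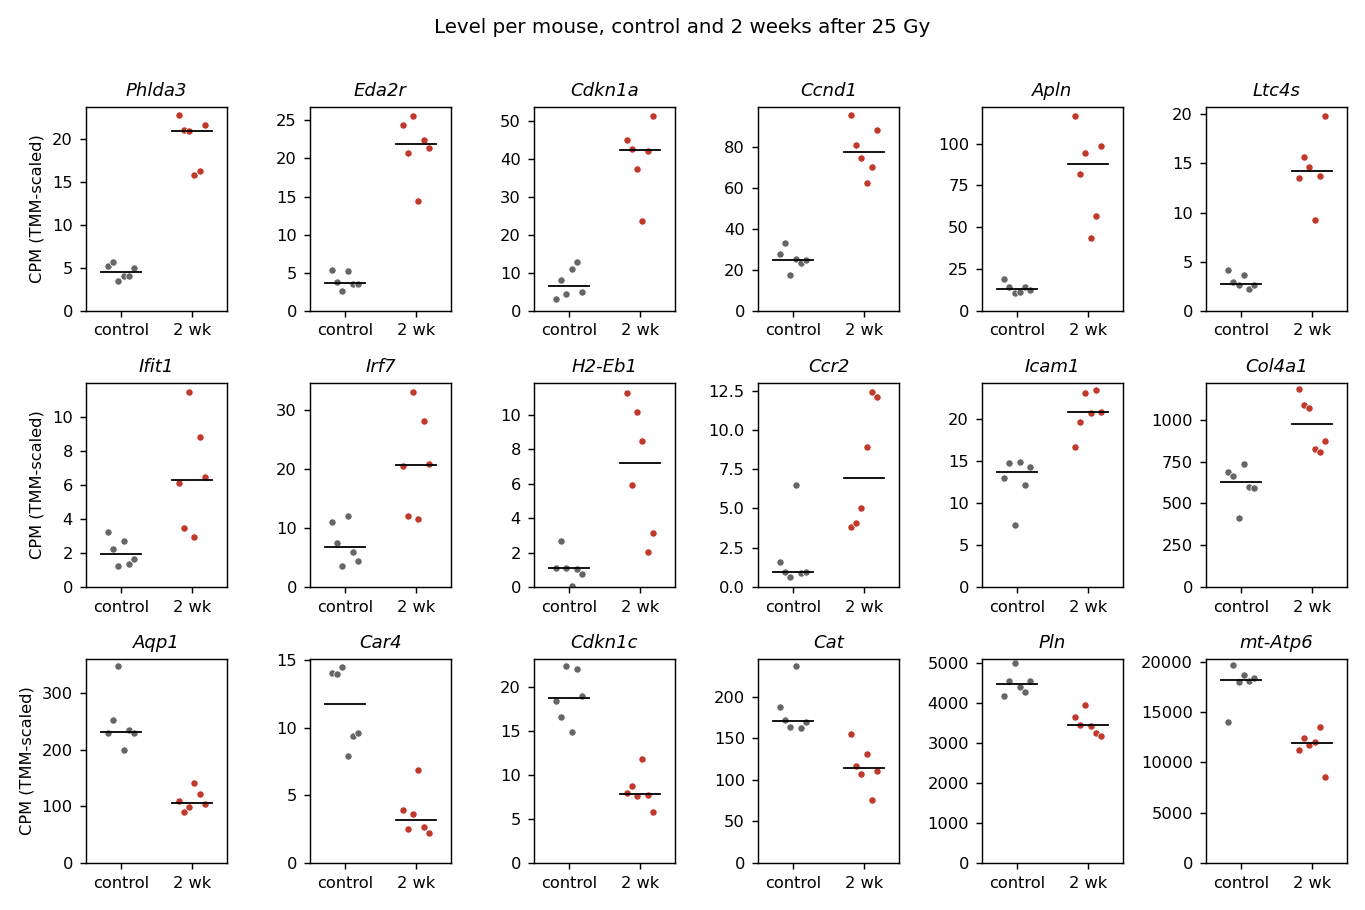
Level in CPM (vertical axis, from 0) of 18 genes in each of the 6 control mice (grey) and 6 mice at 2 weeks (red), with the median of each group as a line. The upper row holds genes whose irradiated mice all lie above the controls, such as Phlda3, at 15.8 to 22.8 CPM against 3.42 to 5.67, the middle row immune and vessel genes, several of which overlap, and the lower row genes that fell.

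Promoters of the genes tested were read from RefSeq (GRCm38.p6, 250 bases before to 50 after the start), which gave a window for 11183 of the 15054 genes. A p53 half-site in either strand was present in 8.48% of all these genes, in 13 of the 36 listed p53 targets with a window (36.1%) and in 13 of the 82 genes that rose past both thresholds (15.9%). Pairs of half-sites with a spacer of at most 13 bases were found for 6 genes (0.0537%), of which only Cdkn1a rose past both thresholds. Among the 18 called targets with a window, 6 held a half-site (33.3%), no larger a share than among all listed targets. The windows of 3 of these 6 are shown as examples, with their matches marked by capitals. A match describes the letters in the window and not binding.
Cdkn1a promoter, chr17:29090729-29091028, plus strand: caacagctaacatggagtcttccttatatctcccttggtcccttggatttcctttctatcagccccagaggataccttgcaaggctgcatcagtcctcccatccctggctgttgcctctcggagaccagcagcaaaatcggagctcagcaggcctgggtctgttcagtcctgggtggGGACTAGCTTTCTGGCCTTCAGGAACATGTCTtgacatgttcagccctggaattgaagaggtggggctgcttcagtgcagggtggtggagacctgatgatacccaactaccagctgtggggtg
Bax promoter, chr7:45466849-45467148, minus strand: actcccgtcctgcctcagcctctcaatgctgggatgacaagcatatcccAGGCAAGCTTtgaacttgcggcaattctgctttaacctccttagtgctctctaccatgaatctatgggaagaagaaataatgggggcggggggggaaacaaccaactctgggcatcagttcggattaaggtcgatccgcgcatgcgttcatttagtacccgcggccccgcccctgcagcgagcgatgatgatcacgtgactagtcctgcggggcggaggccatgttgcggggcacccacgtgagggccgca
Mdm2 promoter, chr10:117710709-117711008, minus strand: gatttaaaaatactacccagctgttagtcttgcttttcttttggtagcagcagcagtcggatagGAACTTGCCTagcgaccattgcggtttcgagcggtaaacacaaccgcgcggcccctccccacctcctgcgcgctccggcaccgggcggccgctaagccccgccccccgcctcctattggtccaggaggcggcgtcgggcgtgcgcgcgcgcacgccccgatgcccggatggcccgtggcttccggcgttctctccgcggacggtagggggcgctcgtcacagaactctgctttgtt

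Cell cycle regulators changed in both directions. In a list of D cyclins, their kinases and CDK inhibitors, drawn up after values were seen, 5 of 18 tested genes were called higher and 2 lower. Ccnd1 (ENSMUSG00000070348, chromosome 7, 144929931 to 144939925), the cyclin that answers growth signals, was at 17.3 to 33.2 CPM in controls (median 24.9) and 62.5 to 95.4 CPM at 2 weeks (median 77.5). Its log2FC was 1.64 (SE 0.14, adjusted P = 1.06e-06), with no overlap. Ccnd2 was at 94.1 to 122 CPM and then 129 to 185 CPM, and the kinase Cdk6 at 8.88 to 10.5 and then 11.9 to 15.5 CPM (adjusted P = 0.00228 and 0.0221). The inhibitor Cdkn1c, which encodes p57, went the other way, from 14.8 to 22.3 CPM (median 18.7) down to 5.79 to 11.8 CPM (median 7.84, log2FC -1.18, SE 0.18, adjusted P = 0.00109). Cdkn1b, which encodes p27, was at 18.1 to 20.8 and 12.7 to 16.9 CPM (log2FC -0.41, adjusted P = 0.0044). E2f1, a transcription factor of the S phase entry, was at 0.518 to 2.15 CPM in controls and 1.98 to 2.86 CPM after the dose (adjusted P = 0.0353). p21, p27 and p57 are related inhibitors of the same kinases, and only p21 rose. The 5 called higher became 3 without control 3 or mouse 1 at 2 weeks, while the 2 called lower held in every such fit. Cdk6 kept its call in 10 and E2f1 in 6 of the 12 fits.

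Genes of S phase and mitosis were mostly above the control mean at 2 weeks but seldom passed the test. Of 50 tested, 46 had a positive log2FC (median 0.43) and 3 were called: the replication licensing genes Cdt1, Mcm3 and Mcm2, with log2FC values of 0.72, 0.68 and 0.53 and adjusted P of 0.0424, 0.0426 and 0.0496. All 3 overlapped between groups, and none kept its call in every fit that left out 1 mouse. Averaged over the list as log2(CPM + 1) relative to the control mean, irradiated mice lay at 0.24 to 0.47, whereas controls spread from -0.50 in control 3 to 0.46 in control 1. Without controls 1 and 4, 15 of the 50 were called. Genes of DNA damage signaling and repair hardly differed at 2 weeks: 1 of 45 was called, which was Trp53, and the median was 0.07.

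Several enzymes that clear foreign compounds rose, while several that handle peroxides and electrophiles fell. Of 21 listed carboxylesterase and epoxide hydrolase genes, 15 were below the filter. Of the 6 tested, 4 were called higher and none lower (median log2FC 0.72). Ces2b, 1 of the 4, had at most 0.250 CPM in controls and met the filter through irradiated mice, so the share of the list called is uncertain. Ces2e (ENSMUSG00000031886, chromosome 8, 104926260 to 104934672), a carboxylesterase that is also in the p53 list, was at 1.90 to 3.42 CPM in controls and 11 to 18.1 CPM at 2 weeks. Its log2FC was 2.36 (SE 0.14, adjusted P = 8.39e-09), the smallest adjusted P of any gene apart from Gm10800. Reads of Ces2e could be shared with its close relatives Ces2b and Ces2g, which were at 0.265 to 0.954 and 4.10 to 6.10 CPM at 2 weeks, against 0 to 0.250 and 1.85 to 4.10 CPM in controls. Ephx1, the microsomal epoxide hydrolase, was at 20.3 to 43.0 and 42.4 to 60.1 CPM (log2FC 0.75, adjusted P = 0.00885). Among 36 tested genes of the NRF2 and glutathione systems, 8 were called lower, 1 higher, and the median was -0.19. Gpx4, which reduces lipid peroxides, was at 467 to 565 CPM in controls and 354 to 414 CPM at 2 weeks (log2FC -0.47, SE 0.07, adjusted P = 0.000687). Cat, which breaks down hydrogen peroxide, was at 163 to 237 and 75.5 to 155 CPM (log2FC -0.65, SE 0.18, adjusted P = 0.0462). Hmox1, the heme oxygenase, was the member called higher, at 10.9 to 20.7 CPM and then 18.9 to 23.7 CPM (adjusted P = 0.00854). Gsta1 and Gstm1, glutathione transferases, and the peroxiredoxin gene Prdx1 had log2FC values of -2.30, -0.32 and -0.47 (adjusted P = 0.0121, 0.0336 and 0.0295). The 8 calls became 2 without control 3, control 6, or mouse 2 or 5 at 2 weeks, with Gpx4 and Gsta1 called in every such fit. Under library size the list's median was -0.04, still 0.19 below that of all genes, while under log2(TPM + 1) it was 0.05, or 0.12 below.

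Other stress programs showed little. None of 27 tested immediate early genes and none of 22 clock genes was called, at median log2FC values of -0.12 and -0.14 and with 4 and 5 of them at an unadjusted P under 0.05 and 1 of each called with DESeq2. Among 38 chaperones and genes of the unfolded protein response, 1 was called higher and 2 lower. Dnajb9, an ER cochaperone, had a log2FC of -0.36 (adjusted P = 0.0171). The ER chaperone partner Sdf2l1 was at 2.49 to 4.30 and 3.47 to 8.83 CPM (adjusted P = 0.0227) and kept its call in 8 of the 12 fits with 1 mouse left out, and the small heat shock protein gene Cryab was at 1241 to 1731 CPM in controls and 1010 to 1218 CPM at 2 weeks (log2FC -0.34, adjusted P = 0.015). A list of 13 stress genes that the study chose on these same samples had 10 called higher and none lower, which is not independent evidence of its direction. Its members Gas6, Anxa3 and Flna, a ligand of the TAM receptors, an annexin and an actin crosslinker, had log2FC values of 0.78, 0.58 and 0.47 with no overlap between groups.

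Most immune genes lay above the control mean, by more in some irradiated mice than in others. Of 46 interferon-stimulated genes tested, 45 had a positive log2FC (median 0.84) but 7 were called, among them Irf8, Bst2, Ifit1, Irf7, Zbp1 and Irf9. Irf7, the factor that amplifies interferon production, was at 3.61 to 12.1 and 11.5 to 33.1 CPM (log2FC 1.48, SE 0.40, adjusted P = 0.0369). Mice 2 and 4 at 2 weeks lay within the range of the controls for Irf7. Averaged over the list, mice 2 and 4 at 2 weeks lay at 0.27 and 0.22, within the range of the controls (-0.54 to 0.38), and the other 4 lay between 0.61 and 1.25. Bst2, a tether of budding virus, had no overlap, with 3.89 to 12 CPM in controls and 12.1 to 26.5 CPM at 2 weeks (log2FC 1.17, SE 0.29, adjusted P = 0.0279). Ifit1, which binds foreign RNA, was at 1.2 to 3.25 and 2.94 to 11.5 CPM (adjusted P = 0.0314). The myeloid factor Irf8 was at 4.53 to 9.50 and 10.6 to 15.4 CPM (log2FC 0.94, adjusted P = 0.0044) and was the only 1 of the 7 that kept its call whichever mouse was left out. The count of 7 was 1 without control 3, control 6, or mouse 3 or 5 at 2 weeks, 14 without control 1, and 17 without controls 1 and 4. Among 17 guanylate-binding proteins and related GTPases only Igtp was called, which is 5.88% beside 3.09% called higher over all genes tested. Igtp was at 3.89 to 10.7 CPM in controls and 4.97 to 37.8 CPM at 2 weeks (adjusted P = 0.0464). Its call held in 4 of the 12 fits that each left out 1 mouse, and the list had 3 calls without mouse 4 at 2 weeks and none without control 3, 4, 5 or 6 or mouse 1, 3, 5 or 6.

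The interferon element, GAAA followed after any 2 bases by another GAAA and searched in both strands of the same promoter windows, was present in 3.83% of all genes, in 15 of 34 interferon-stimulated genes with a window (44.1%) and in 7 of the 82 genes that rose past both thresholds (8.54%). Those 7 were Aif1, Apol9a, Apol9b, Bst2, Ifit1, Igtp and Slfn9. The windows of Ifit1 and Bst2 are shown, each with 2 matches in capitals, since these members of the interferon list passed both thresholds.
Ifit1 promoter, chr19:34640639-34640938, plus strand: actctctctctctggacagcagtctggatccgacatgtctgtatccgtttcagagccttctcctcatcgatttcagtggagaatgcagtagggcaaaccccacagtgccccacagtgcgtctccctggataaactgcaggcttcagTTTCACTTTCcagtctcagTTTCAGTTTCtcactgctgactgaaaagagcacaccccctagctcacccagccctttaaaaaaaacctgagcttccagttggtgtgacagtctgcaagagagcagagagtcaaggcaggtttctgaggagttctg
Bst2 promoter, chr8:71537423-71537722, minus strand: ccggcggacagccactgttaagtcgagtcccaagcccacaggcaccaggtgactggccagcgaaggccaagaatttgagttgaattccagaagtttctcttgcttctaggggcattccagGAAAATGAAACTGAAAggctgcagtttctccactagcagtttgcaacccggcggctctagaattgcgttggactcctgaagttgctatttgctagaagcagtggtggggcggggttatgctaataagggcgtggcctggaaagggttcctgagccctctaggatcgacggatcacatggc

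Averaged genes of MHC class II presentation lay above the controls in every irradiated mouse. Of 8 tested, all had positive log2FC values (median 1.24) and 4 were called. Cd74, the invariant chain that guides class II molecules, was at 13.5 to 74.6 CPM in controls (median 46.3) and 69.8 to 181 CPM at 2 weeks (median 114, log2FC 1.31, SE 0.32, adjusted P = 0.0227). H2-Eb1, a class II chain, was at 0.0694 to 2.67 and 2.06 to 11.3 CPM (log2FC 2.62, SE 0.63, adjusted P = 0.0227), and 1 irradiated mouse lay within the range of the controls for each of these 2 genes. H2-DMb1, which helps to load peptides, was at 0 to 1.08 and 0.332 to 2.68 CPM (adjusted P = 0.027). Ciita, the factor that switches class II genes on, was at 0.648 to 4.37 CPM in controls and 4.41 to 9.45 CPM at 2 weeks (adjusted P = 0.0395). Averaged over the list, irradiated mice lay at 0.63 to 1.35, all above the controls at -0.62 to 0.42. The 4 calls became none without control 6 and 6 without control 4. H2 genes are near-identical copies that differ between outbred mice, so their single values are uncertain. All 20 tested class I presentation genes had positive values (median 0.65), and 2 were called, the class I chain H2-Q4 and the chaperone Pdia3 (adjusted P = 0.0421 and 0.0364). They kept their calls in 4 and 6 of the 12 fits with 1 mouse left out, and the count of 2 was none without control 2 or 5 or mouse 1 or 3 at 2 weeks and 3 without control 1.

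Genes of leukocytes gave a smaller signal. The pan-leukocyte gene Ptprc was at 4.07 to 13.5 CPM in controls and 10.4 to 22.4 CPM at 2 weeks (log2FC 1.01, SE 0.24, adjusted P = 0.0225). Of 35 macrophage and monocyte genes, 4 were called higher: Ccr2, Aif1, C1qa and Itgam. Ccr2, the receptor of recruited monocytes, was at 0.648 to 1.56 CPM in 5 controls and 6.52 in control 4, and at 3.82 to 12.4 CPM at 2 weeks (log2FC 1.94, SE 0.45, adjusted P = 0.0189). Cd68, a lysosomal gene of macrophages, was at 9.16 to 28.4 and 12.5 to 21 CPM and was not called (adjusted P = 0.599). The list's mean was highest of all 12 mice in control 4 (0.77), above the irradiated mice at 0.22 to 0.55, and the 4 calls became 13 without control 4 and 2 without control 2, 3 or 6 or mouse 3, 5 or 6 at 2 weeks. Ccr2 and Aif1 were the 2 that held in every such fit. None of 14 B cell genes and none of 8 neutrophil and mast cell genes was called by edgeR or DESeq2, with 4 B cell genes and none of the others at an unadjusted P under 0.05. Of 18 T and NK cell genes only Gzmb was called, listed at 0 in all 6 controls and at 0 to 0.417 CPM at 2 weeks, which is near the 0.194 to 0.246 CPM that 3 counts represent in the controls. Gzmb kept its call in 1 of the 12 fits with 1 mouse left out, and the list had none to 2 calls in them, with 2 without control 1. Among 25 chemokines, Ccl9, Ccl12 and the membrane-bound Cxcl16 were called higher, and Cxcl12, which retains leukocytes and stem cells, was called lower. Cxcl12 was at 259 to 325 CPM in controls and at 152 to 190 CPM in 5 irradiated mice, with 284 CPM in mouse 4 (log2FC -0.66, SE 0.14, adjusted P = 0.012). Of 24 complement genes, C1qa, C1ra and Cfp were called higher and Cd59a, which blocks the membrane attack complex, was called lower. Of these chemokine and complement calls, those of Cxcl16 and Cxcl12 held whichever mouse was left out. The 3 chemokines called higher became 6 without control 4 and 1 without control 2, 3 or 6 or mouse 3, 5 or 6 at 2 weeks, and the 3 complement genes called higher became none without mouse 5 at 2 weeks and 6 without control 4.

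Lipid mediator genes were led by Ltc4s (ENSMUSG00000020377, chromosome 11, 50236461 to 50238616), which makes leukotriene C4. It was at 2.27 to 4.17 CPM in controls (median 2.75) and 9.22 to 19.9 CPM at 2 weeks (median 14.2), a log2FC of 2.23 (SE 0.17, adjusted P = 1.56e-07) with no overlap. The leukotriene B4 receptors Ltb4r1 and Ltb4r2 had log2FC values of 1.29 and 1.73, and thromboxane synthase, Tbxas1, 1.18 (adjusted P = 0.0279, 0.00617 and 0.00215). Ltb4r1 and Ltb4r2 are neighbours on chromosome 14 and may share reads. These were the 4 called genes of a list of 25, drawn up after values were seen. Receptors of resident macrophages, listed in the same way, went both ways in 14 tested genes. Cd209f was at 1.29 to 2.41 CPM in controls and 0.367 to 1.18 CPM at 2 weeks (log2FC -1.28, adjusted P = 0.00603), with Vsig4 and Cd209g also called lower. Mgl2, a lectin of macrophages and dendritic cells, rose from 2.22 to 5.62 CPM up to 7.62 to 10.5 CPM (log2FC 1.16, adjusted P = 0.0187). The count of 3 called lower was 1 without several single mice, control 4 among them.

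**Figure D3:**
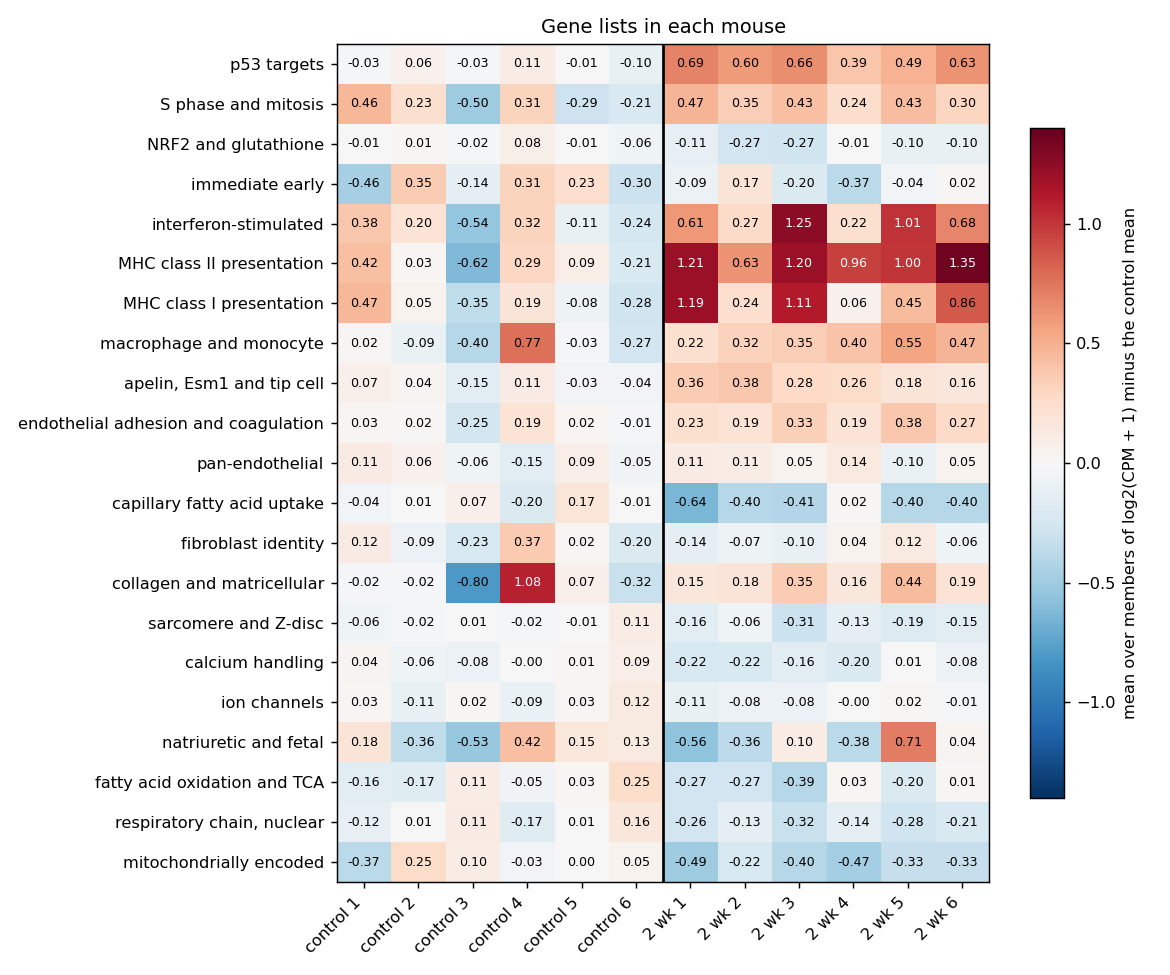
Mean over the members of selected gene lists (rows) of log2(CPM + 1) minus the control mean, in each of the 12 mice (columns, controls left of the line). Red is above and blue below the control mean. The p53 and MHC class II lists are above all controls in the 6 irradiated mice, the interferon list in 4 of them, and control 4 stands out for collagen (1.08) and macrophage genes (0.77).

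Vascular genes were called in both directions. Apln (ENSMUSG00000037010, chromosome X, 48025146 to 48034853), which encodes apelin, a peptide of sprouting endothelium, was at 10.8 to 19.3 CPM in controls (median 13.1) and 43.6 to 117 CPM at 2 weeks (median 88.1). Every irradiated mouse lay above every control, and the log2FC was 2.57 (SE 0.22, adjusted P = 1.06e-06). In the list of apelin and tip cell genes, 7 of 25 were called higher and 2 lower, and the 7 kept their calls whichever mouse was left out. They included Angpt2, which loosens vessel walls, at 2.92 to 4.56 and 4.84 to 9.10 CPM (log2FC 0.95, SE 0.18, adjusted P = 0.00529), and Pgf, a VEGF family ligand (0.77, adjusted P = 0.0197). Col4a1, a basement membrane collagen chain, was at 415 to 734 CPM in controls and 808 to 1181 CPM at 2 weeks (log2FC 0.67, adjusted P = 0.0169), and the basement membrane genes Col4a2, Nid2 and Lama4 had log2FC values of 0.69, 0.95 and 0.47, all without overlap. Tek and Tie1, the receptors of the angiopoietin system, were the 2 called lower, at log2FC values of -0.40 and -0.27 (adjusted P = 0.0223 and 0.0424). Of 22 VEGF and hypoxia genes, the coreceptor Nrp2 was called higher and the receptor Flt1 lower, the latter at 140 to 211 and 118 to 139 CPM (log2FC -0.44, adjusted P = 0.0044). Each call is 4.55% of that list, beside 3.09% higher and 1.93% lower over all genes tested.

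Among 30 pan-endothelial genes, 1 was called higher and 4 lower, at a median of 0.09. Pecam1, an adhesion molecule of endothelial junctions, was at 111 to 142 CPM in controls and 160 to 196 CPM at 2 weeks (log2FC 0.48, SE 0.08, adjusted P = 0.00366). Ptprb, the phosphatase of the same junctions, was called lower at a log2FC of -0.21 (adjusted P = 0.0431), a direction that turned to 0.03 under log2(TPM + 1). Flt1, Nrp2 and Pecam1 kept their calls in every fit with 1 mouse left out, and Tek, Tie1 and Ptprb did not. The 4 pan-endothelial genes called lower became 1 without control 5 or mouse 5 or 6 at 2 weeks, and the 1 called higher became 4 without control 1. Summed defining genes of endothelium were at 563 to 719 CPM in controls and 669 to 785 CPM at 2 weeks, and the part of this sum in the values of single vessel genes was not tested.

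Of 18 tested genes of capillary endothelium and fatty acid uptake, 7 were called lower, 2 higher and 9 neither, at a median of -0.32. Aqp1 (ENSMUSG00000004655, chromosome 6, 55336432 to 55348555), the water channel of capillaries, was at 199 to 347 CPM in controls (median 232) and 89.2 to 141 CPM at 2 weeks (median 106), a log2FC of -1.17 (SE 0.16, adjusted P = 0.000398). Car4, the carbonic anhydrase of the capillary surface, was at 7.91 to 14.4 and 2.20 to 6.87 CPM (log2FC -1.65, SE 0.25, adjusted P = 0.00112). For both genes every irradiated mouse was below every control. Cd36, the main fatty acid transporter of the heart, was at 893 to 1207 CPM in controls and 695 to 875 CPM at 2 weeks (log2FC -0.47, SE 0.10, adjusted P = 0.0134). The lipid carrier Fabp4 and the glycerol channel Aqp7 overlapped, since mouse 4 at 2 weeks had 355 and 26.6 CPM, near the control medians of 373 and 25.8. That mouse had a list mean of 0.02, the highest of the irradiated mice, against -0.64 to -0.40 in the other 5. Slc27a3 and Slc27a4, acyl-CoA synthetases of the fatty acid transport family, were the members called higher (1.32 and 0.28). Aqp1, Car4 and Cd36 kept their calls whichever mouse was left out, and the count of 7 was 3 without mouse 5 and 8 without mouse 4 at 2 weeks. Rgcc, an endothelial cell cycle regulator, and Timp4, an inhibitor of metalloproteinases, had log2FC values of -1.31 and -1.21 with overlapping groups (adjusted P = 0.0257 and 0.0278). Library size gave a list median of -0.17 and log2(TPM + 1) one of -0.07, which were 0.32 and 0.25 below the medians of all genes.

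Adhesion and coagulation genes were called higher in 9 of 25 cases and lower in 2 (median 0.44). Icam1, the ligand of leukocyte integrins, was at 7.4 to 14.9 CPM in controls and 16.7 to 23.5 CPM at 2 weeks (log2FC 0.70, SE 0.13, adjusted P = 0.0044). Mcam, an adhesion molecule of endothelium and pericytes, was at 28.4 to 34.8 and 44.0 to 62.3 CPM (log2FC 0.70, adjusted P = 0.000445). Neither gene's groups overlapped. Plaur, the urokinase receptor, had a log2FC of 1.15, Anxa2 0.63 and the anticoagulant Pros1 0.55 (adjusted P = 0.00731, 0.00272 and 0.00213). The plasminogen activators Plat and Plau and the selectin ligand Selplg had 0.49, 0.54 and 0.90 with overlapping groups (adjusted P = 0.0331, 0.0363 and 0.0227). F8, the clotting factor, and Jam2, a junction molecule, were called lower at -0.45 and -0.48. With single mice left out, 5 to 10 were called higher, with 5 without control 3 or mouse 5 at 2 weeks. Smooth muscle and pericyte genes other than Mcam were not called in 23 tested, and Acta2 was at 50.9 to 148 and 90.9 to 218 CPM (log2FC 0.79, SE 0.26, adjusted P = 0.0811). The call of Mcam is 4.35% of that list, near the 3.09% called higher over all genes tested.

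Fibroblast genes and most matrix genes did not pass the test. Of 24 fibroblast identity genes, Pdgfra, a receptor of fibroblasts, was called lower, at 53.7 to 97.3 CPM in controls and 43.9 to 60.6 CPM at 2 weeks (log2FC -0.55, SE 0.13, adjusted P = 0.0193). Col1a1 was at 170 to 899 and 354 to 431 CPM (log2FC 0.15, SE 0.31, adjusted P = 0.84). Of 38 collagen and matricellular genes, 4 were called higher, Col4a1, Col4a2, Col6a1 and the collagenase Mmp2. The number was 15 without control 4 and 2 without control 3, 5 or 6 or mouse 1 at 2 weeks, the 2 being Col4a1 and Col4a2. In the list of TGF-beta and IGF genes, with 33 tested, Tgfb1 was called higher, and so was Gas6, a ligand of the TAM receptors that this list also holds. Gas6 (ENSMUSG00000031451, chromosome 8, 13465374 to 13494490) was at 154 to 179 CPM in controls (median 168) and 268 to 319 CPM at 2 weeks (median 283, log2FC 0.78, SE 0.07, adjusted P = 1.71e-06). Tgfb1 was at 28.1 to 37.2 and 41.5 to 46.5 CPM (log2FC 0.44, adjusted P = 0.00105), so that neither gene overlapped between groups.

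Few myocyte genes passed the test, though most sarcomere and calcium handling genes lay slightly below the control level under TMM. Of 36 sarcomere and Z-disc genes, none was called higher and 2 were called lower, Csrp3 and Myot. Under library size 18 of the 36 had positive values, against 6 with TMM. Relative to the median of all genes, 7 lay above it with library size and 6 with TMM. Averaged over the list, 5 of the 6 irradiated mice lay below every control. Csrp3, a stretch sensor of the Z-disc, was at 654 to 864 CPM in controls and 521 to 640 CPM at 2 weeks (log2FC -0.35, SE 0.07, adjusted P = 0.0114). The myosin chain Myh6 was at 12731 to 22753 and 15285 to 19912 CPM (log2FC -0.12, SE 0.14, adjusted P = 0.696), and Myh7 at 481 to 983 and 521 to 1147 CPM (adjusted P = 0.92). Of 29 calcium handling genes, Pln, which restrains the calcium pump of the sarcoplasmic reticulum, and the calcium channel subunit Cacna2d1 were called lower. Negative values were found for 23 of the 29, and the list's mean was below every control in 4 irradiated mice. Pln was at 4171 to 5015 CPM in controls and 3171 to 3945 CPM at 2 weeks, with no overlap (log2FC -0.37, SE 0.08, adjusted P = 0.0118). Among 35 ion channel genes, the sodium channel subunit Scn3b was called higher, at 1.74 to 3.25 and 2.92 to 8.34 CPM (log2FC 1.23, SE 0.28, adjusted P = 0.0166), and the pacemaker channel Hcn2 lower, at 46.1 to 73.3 and 23.4 to 42.1 CPM (log2FC -0.61, SE 0.16, adjusted P = 0.0388). Each call is 2.86% of the list, near the shares over all genes tested, 3.09% higher and 1.93% lower. Gja1, the main ventricular connexin, was at 539 to 638 and 549 to 772 CPM (log2FC 0.07, SE 0.08, adjusted P = 0.694). Under library size the signs of Myh6 and Myh7 turned positive. Csrp3, Pln and Scn3b kept their calls whichever mouse was left out, and Myot, Cacna2d1 and Hcn2 did not.

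None of 23 natriuretic and fetal genes and none of 30 cardiac and conduction transcription factors was called by edgeR, with 5 and 6 of them at an unadjusted P under 0.05 and none and 1 called with DESeq2. Nppb, the natriuretic peptide that marks wall stress, was at 1.06 to 67.5 CPM in controls (median 2.85) and 2.72 to 99.5 CPM at 2 weeks (median 42.4). Both groups were spread over most of that range (log2FC 1.36, SE 0.97, adjusted P = 0.46). Nppa was at 166 to 1451 and 159 to 665 CPM (adjusted P = 0.491). Of 24 gap junction and disc genes, Tjp1 alone was called, at a log2FC of -0.17 (adjusted P = 0.0474) that was 0.07 under log2(TPM + 1), and it kept this call in 3 of the 12 fits with 1 mouse left out.

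Genes of energy metabolism lay slightly below the control level under TMM. All 43 tested nuclear genes of the respiratory chain had negative log2FC values (median -0.19) and 10 were called lower. The same 43 were negative with DESeq2 size factors and upper quartile scaling, whereas 14 were positive with library size (median -0.04) and 29 under log2(TPM + 1) (median 0.05). Ndufa4 was at 593 to 779 CPM in controls and 469 to 544 CPM at 2 weeks (log2FC -0.42, SE 0.08, adjusted P = 0.0044). Subunits of cytochrome oxidase were among the called genes, with Cox7b at 427 to 706 and 317 to 419 CPM (-0.59, SE 0.12, adjusted P = 0.00831) and Cox5a, Cox6b1 and Cox8b at -0.35, -0.30 and -0.30. All 13 mitochondrially encoded genes were negative too (median -0.34, and -0.18 with library size), and 3 were called. mt-Atp6, a subunit of ATP synthase, was at 13981 to 19736 CPM in controls and 8592 to 13504 CPM at 2 weeks (log2FC -0.62, SE 0.12, adjusted P = 0.00824). mt-Co3 and mt-Nd4l, subunits of cytochrome oxidase and complex I, had log2FC values of -0.59 and -0.39, and the 3 calls became 5 without control 1 and 1 without any of 9 other mice. Relative to the median of all genes, which other scalings moved, none of the 43 respiratory genes lay above it with library size and 4 did under log2(TPM + 1). The 10 calls became 4 without control 3 or control 6 and 16 without controls 1 and 4. Fatty acid oxidation and TCA genes had 2 of 42 called lower (median -0.18, -0.03 with library size and 0.07 under log2(TPM + 1)), Hadhb of the trifunctional protein and Oxct1 of ketone use, at -0.33 and -0.35 (adjusted P = 0.0103 and 0.0197). Of 32 genes of glucose transport and glycolysis, Pfkfb1 and Gapdh were called lower, at 6.97 to 11.7 and 3.76 to 5.69 CPM for the former (log2FC -0.92, adjusted P = 0.0116). Hadhb and Pfkfb1 held in every fit with 1 mouse left out, and Oxct1 and Gapdh did not. The calls of the fatty acid oxidation list became 1 without control 3 and 4 without control 4, and those of the glycolysis list 1 without mouse 3, 5 or 6 at 2 weeks.

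**Figure D4:**
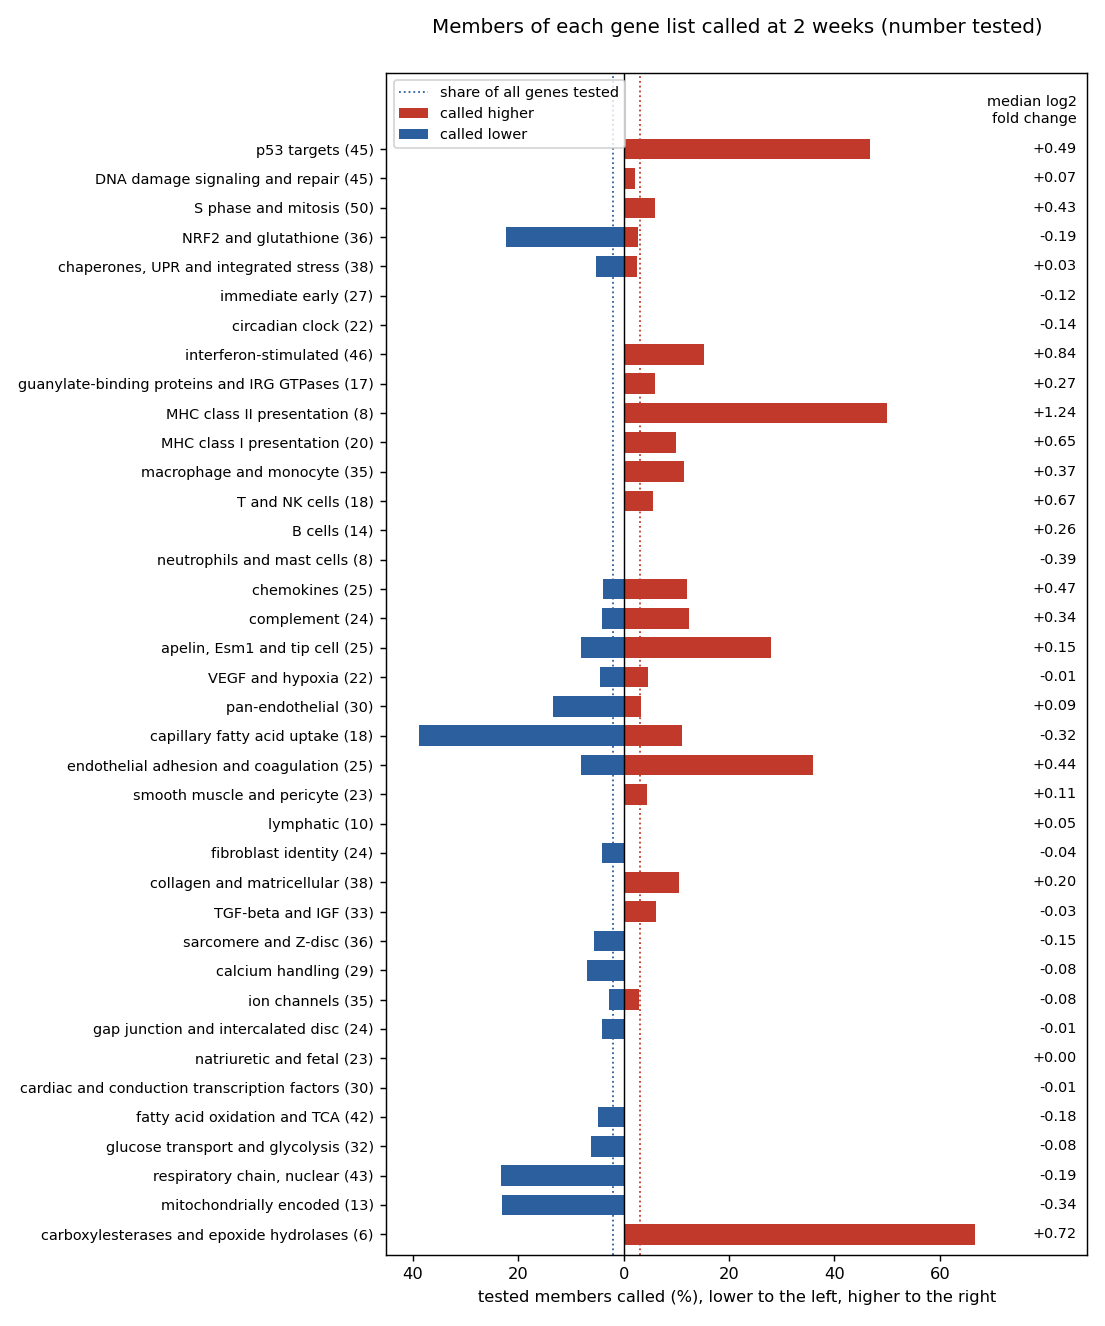
Share of the tested members called in 38 of the 52 gene lists, higher (red, to the right) or lower (blue, to the left) at 2 weeks, in percent, with the number tested in brackets and the median log2FC at the right. Dotted lines mark the shares over all genes tested, 3.09% higher and 1.93% lower. The 14 lists not shown are those of other cells, the list chosen by the study and those drawn up after values were seen. Of the lists shown, carboxylesterase, MHC class II, p53 and adhesion lists reach furthest to the right, and capillary, respiratory chain, mitochondrially encoded and NRF2 lists furthest to the left.

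Further genes with strong changes belong to none of the called groups above. Nexmif, a neuronal nuclear protein gene, was at 0.278 to 0.917 CPM in controls and 1.83 to 3.74 CPM at 2 weeks (log2FC 2.13, SE 0.26, adjusted P = 0.00014). The cholesterol exporter Abcg1 was at 6.90 to 11.5 and 13.7 to 23.9 CPM (1.17, SE 0.15, adjusted P = 0.000192). Mycn, a transcription factor of growth, and Rgs16, a brake on G protein signals, had log2FC values of 1.66 and 1.65 (adjusted P = 0.000878 and 0.00357). Prnd, a prion-like protein gene, rose from 5.48 to 16.9 CPM up to 19.1 to 38.6 CPM (1.74, SE 0.24, adjusted P = 0.000445). These 5 genes had groups that did not overlap. On the falling side, Cdh23, an atypical cadherin, was at 20.5 to 30.4 CPM in controls and 10.1 to 17.8 CPM at 2 weeks (-1.01, SE 0.17, adjusted P = 0.00215). Slc26a10, of an anion transporter family, was at 20.3 to 40.7 and 13.6 to 23.7 CPM (-1.01, adjusted P = 0.00368). The secreted phospholipase Pla2g2d and the transcription factor Tcf23 were low in all mice, with medians of 2.68 and 1.28 CPM in controls and 1.08 and 0.367 CPM at 2 weeks. Kcnc1, a potassium channel, was at 3.02 to 8.17 CPM in controls and 1.2 to 3.01 CPM at 2 weeks (-1.26, SE 0.30, adjusted P = 0.0227). Hspe1, the small mitochondrial chaperonin, had the lowest log2FC among called genes of at least 5 CPM, -2.47 (SE 0.52, adjusted P = 0.0116). Its controls were spread from 10.7 to 75.1 CPM whereas irradiated mice lay between 6.05 and 9.47 CPM, and the gene has many near-identical copies in the genome, so its counts are uncertain.

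The gene with the smallest adjusted P was Gm10800 (ENSMUSG00000075014, chromosome 2, 98666547 to 98667301), a predicted gene at 0.302 to 0.648 CPM in controls and 23.5 to 46.4 CPM at 2 weeks. Its reads may be shared with near-identical copies, which was not tested, so its counts are uncertain. Gm10719 and Gm10718, predicted genes on chromosome 9, were at most 0.0694 and 0.0925 CPM in controls, below the level of 3 counts, and at 0.487 to 1.76 and 0.265 to 0.561 CPM at 2 weeks. No irradiated mouse overlapped with a control for any of the 3 genes. Gm10719 and Gm10718 stayed below 0.23 CPM in every control and so reached the test only through irradiated mice. Their lack of overlap was thus partly set by the filter and is no separate result. These values are uncertain in the same way.

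Markers of other cells that a piece of heart could hold were rarely called. None of 7 atrial, 7 skeletal muscle, 11 erythroid and platelet, 12 conduction system and 10 lymphatic genes was called by edgeR or DESeq2, with 0, 1, 0, 3 and 2 of them at an unadjusted P under 0.05. Hbb-bs, adult beta-globin, was at 1.69 to 289 CPM in controls and 5.95 to 82.5 CPM at 2 weeks (adjusted P = 0.493). Of 10 adipocyte genes, Fabp4 and the lipogenic gene Thrsp were called lower, and defining adipocyte genes summed to at most 7.23 CPM in any mouse. Fabp4 and Thrsp kept their calls in 7 and 4 of the 12 fits with 1 mouse left out, and neither was called without control 5 or 6 or mouse 3, 5 or 6 at 2 weeks. The myelin enzyme gene Cnp (0.33, adjusted P = 0.0206) and the mesothelial gene Upk1b were called higher in the lists of nerve and mesothelium, the latter at no more than 1.33 CPM and not called without mouse 5 at 2 weeks.

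The 6 weeks samples were compared with those at 2 weeks. A difference that did not pass the test does not show that a level held. Over all genes tested, 802 differed between 6 and 2 weeks (5.33%, adjusted P under 0.05), a comparison that shares the 2 week mice with the one above. Both times were set against the same controls, and age at collection cannot be told apart from time since the dose. Of the 136 genes past both thresholds at 2 weeks, 30 lay further from the control level at 6 weeks, 4 lay nearer, and the difference did not pass the test for the rest. The 4 were Ces2e, Ltc4s, Tubb4a and the pseudogene H2-Ea-ps. Ces2e was at 7.83 to 10.4 CPM at 6 weeks (log2FC from 2 weeks -0.67, SE 0.12, adjusted P = 0.00713), and Ltc4s at 8.75 to 10.3 CPM (-0.61, adjusted P = 0.0247). The interferon gene Irf7 lay further, at 26.5 to 139 CPM (2.03, adjusted P = 0.00567), as did Apln at 142 to 248 CPM (1.29, adjusted P = 0.00276) and Rgs16 (2.04, adjusted P = 0.000113). Among genes that had fallen, Aqp1 and Cdh23 lay further down, by -0.95 and -0.96 (adjusted P = 0.00343 and 0.00732). Of the 21 p53 targets called higher at 2 weeks, 3 were higher again at 6 weeks (Zmat3, Plk3 and Ano3), Ces2e was lower, and 17 did not pass the test, with a median log2FC of 0.19 from 2 to 6 weeks for the 21. Zmat3 rose by 0.57 (adjusted P = 0.00879). Phlda3 and Bax had log2FC values of 0.10 and 0.05 (SE 0.12 and 0.10, adjusted P = 0.696 and 0.817). Cdkn1a was at 33.2 to 90.5 CPM at 6 weeks, with 5 of 6 mice above every mouse at 2 weeks, but the difference did not pass the test (0.65, SE 0.26, adjusted P = 0.154).

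**Figure D5:**
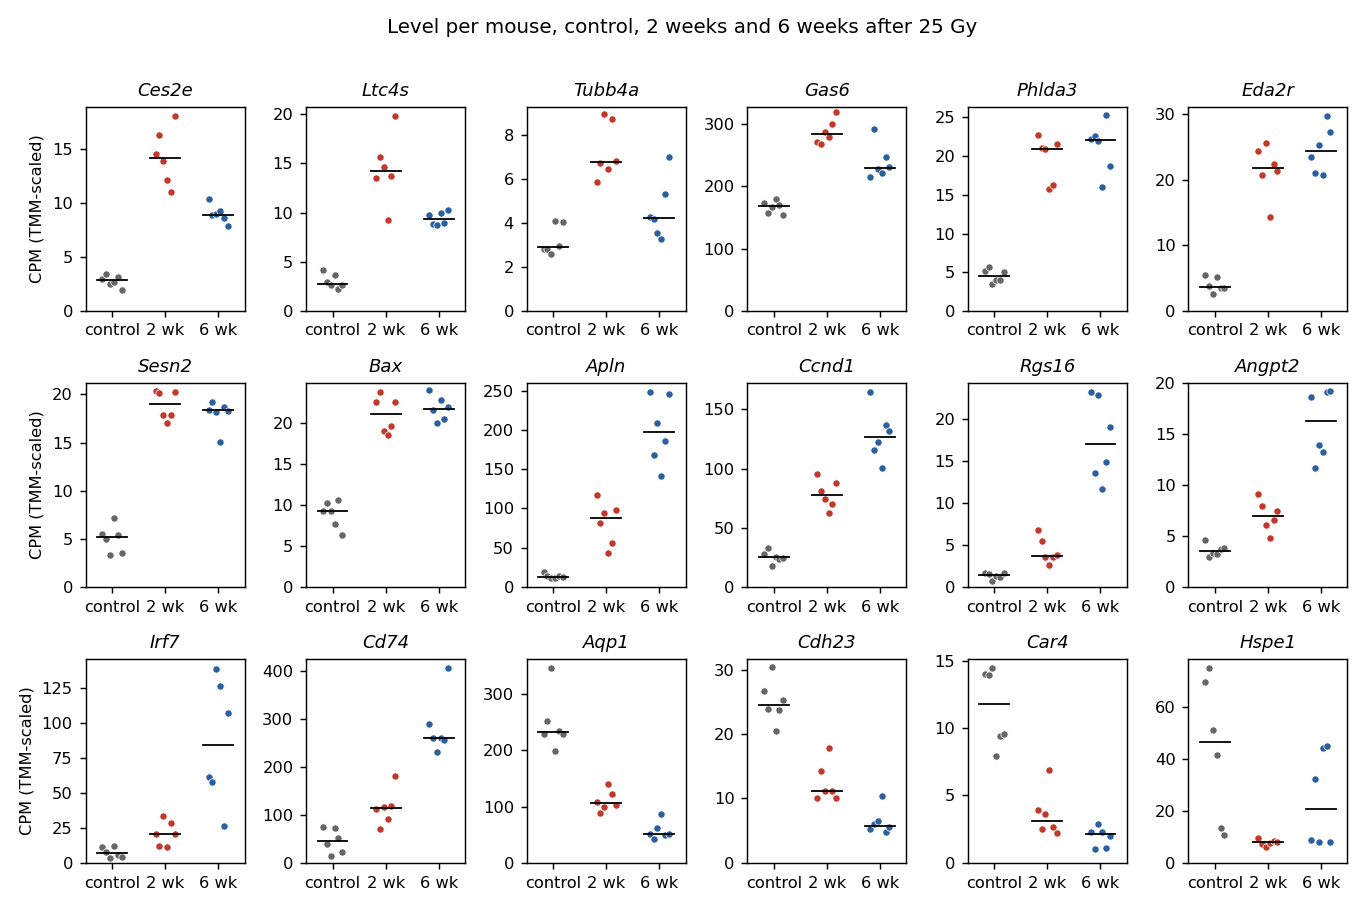
Level in CPM (vertical axis, from 0) of 18 genes in each mouse of the 3 groups, control (grey), 2 weeks (red) and 6 weeks (blue), with group medians as lines. Ces2e and Ltc4s are highest at 2 weeks, the values of Phlda3 and Bax overlap between both times, and Apln, Irf7 and Aqp1 lie further from control at 6 weeks.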

How the data were processed

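The members and gene lists were chosen with earlier results of these data known, and 5 of the 52 lists were added after values were seen. Per the study's methods, the authors mapped the reads with STAR, estimated transcripts with Salmon and collapsed them to genes through tximport. They deposited 1 table of estimated counts without normalization across samples, and 1 table of TPM from that quantification, used here only in alternatives. The submitters' processing notes name Salmon 1.0, CASAVA 1.8 and the build GRCm38.

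Estimated counts were rounded to integers and fitted in edgeR 4.0.16 under R 4.3.3 (TMM, quasi-likelihood F test, the 3 groups in 1 fit, two-sided), with P values adjusted over all 15054 genes tested (Benjamini-Hochberg). Each SE is the absolute log2FC over the square root of F. Values of single mice were compared by exact permutation (scipy 1.17.1), where the smallest P possible with 6 and 6 mice is 0.00216. Symbols and positions came from GENCODE M21 on GRCm38 and were found for 29301 genes, against 771 without. A floor of 3 counts was 0.194 to 0.246 CPM in controls, and covers counting error only. Lists are described by counts and medians without a test. The code was tested on simulated counts.

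Genes are named by this rule: the 12 higher and 10 lower genes with the smallest adjusted P past both thresholds, the 6 highest and 6 lowest fold changes of called genes at 5 CPM or more, up to 5 called members per list (or the 2 most abundant where fewer than 2 were called), 14 genes that define a cell type or program, and up to 8 genes per direction that differed from 2 to 6 weeks. It named 164 genes, of which 38 are counted with their lists only, 37 that were not called and 1 that is not reported here. Bbc3, Gtse1, Pmaip1, Ccng1, Fas, Plk3, Ano3, Anxa3, Flna, Ccnd2, Cdk6, Cdkn1b, E2f1, Cat, Zbp1, Irf9, Pgf, Aqp7, Jam2, F8, Selplg, Plat, Plau, Prnd, Mycn, Gm10719, Gm10718 and the genes of the added lists were named after their values were seen. Alternatives were DESeq2 1.42.0, limma 3.58.1, other scalings, filters and thresholds, TPM, the replicate block, a covariate of Y-linked counts, and fits without each mouse. The earlier edgeR model, upper quartile scaling and leaving out controls 1 and 4 were chosen after seeing the data.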

Additional observations from a re-analysis of the deposited data

Results flagged for a closer look

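In 25 of 346 groups of 6 mice checked, 1 mouse lay far from the other 5, and chance alone gives this in about 1 in 20 groups. Control 4 was the highest control for Gsta1 (1.73 CPM, next 0.863), Cat (237, next 187), Hmox1 (20.7, next 13.1), Ccr2 (6.52, next 1.56), Cd68 (28.4, next 13.5), Vsig4 (4.23, next 2.07) and Col1a1 (899, next 326). Control 3 was lowest for Col4a2 (368 CPM) and Icam1 (7.4 CPM), highest for Aqp1 (347 CPM), and the only control above 0 for Gm10718 (0.0925 CPM). The other controls that stood apart were control 2 for Mcm2 (9.92 CPM) and H2-DMb1 (1.08 CPM), control 1 for Prnd (16.9 CPM, high) and mt-Atp6 (13981 CPM, low), and control 5 for Tcf23 (2.57 CPM). Mouse 4 at 2 weeks was the highest irradiated mouse for Cxcl12 (284 CPM), Car4 (6.87 CPM), Fabp4 (355 CPM), Aqp7 (26.6 CPM), Tcf23 (0.785 CPM) and Slc26a10 (23.7 CPM). Mouse 3 at 2 weeks was highest for Jam2 (165 CPM), and mouse 1 was lowest for Hcn2 (23.4 CPM) and highest for Myh7 (1147 CPM).

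For 53 of the genes named, the level at 6 weeks differed from that at 2 weeks at an adjusted P under 0.05 (edgeR), given here as the log2 fold change at 6 weeks over 2 weeks. Those lower at 6 weeks were Ces2e (-0.67), Ltc4s (-0.61), Gas6 (-0.27), Tubb4a (-0.67), H2-Ea-ps (-2.66), Aqp1 (-0.95), Cdh23 (-0.96) and Tek (-0.36), of which the first 5 had risen at 2 weeks and the last 3 had fallen. Vessel, adhesion and matrix genes that were higher again at 6 weeks were Apln (1.29), Angpt2 (1.2), Pgf (1.16), Mcam (0.84), Nid2 (0.55), Col4a1 (0.69), Col4a2 (0.63), Pecam1 (0.42), Icam1 (0.47), Anxa2 (0.60), Anxa3 (0.70), Plau (0.67), Selplg (0.82), Prnd (0.91) and Tgfb1 (0.29). Cell cycle and p53 genes among them were Ccnd1 (0.71), Cdk6 (0.73), E2f1 (0.97), Mcm2 (0.56), Zmat3 (0.57), Plk3 (0.68) and Ano3 (1.16). Immune genes were Irf7 (2.03), Ifit1 (1.59), Zbp1 (1.27), Bst2 (0.99), Irf8 (0.68), Cd74 (1.30), Ptprc (0.97), C1qa (0.66), Ccl12 (0.93), Cxcl16 (0.72) and Mgl2 (0.89). Necroptosis and actin genes were Ripk1 (0.30), Ripk3 (0.61), Mlkl (0.60), Cflar (0.31), Actb (0.37), Fscn1 (0.43), Arpc1b (0.28), Actn4 (0.45) and Coro1a (0.79). Rgs16 (2.04), Abcg1 (0.86) and Hmox1 (0.66) completed the list.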

How the results depend on the processing

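The 136 genes past both thresholds became 243 with library size, 73 and 316 with log2(TPM + 1) and log2(TPM + 0.1), 206 at an adjusted P under 0.10 and 253 without controls 1 and 4. The 755 genes past the adjusted P alone became 1229 with DESeq2, 1789 with library size, 2813 and 3026 with TPM, 1355 at 0.10 and 26 when tested against a log2 fold change of 0.5. The remaining alternatives moved both counts by less than 1.5 times. Leaving out 1 mouse gave 85 (without control 3) to 189 (without control 4) of the former, and 90 without control 6. It gave 451 (without control 6) to 879 (without control 1) of the latter, with 453 without control 3 and 466 and 474 without mice 5 and 6 at 2 weeks. The higher and lower calls, 465 and 290, were 1707 and 82 with library size and 2774 and 39 with log2(TPM + 1), where the median of all genes was 0.15 and 0.18. The filter can also be read as removing genes that were low in at least 6 samples, as the paper words it. With this other reading 14013 genes were tested, and only 114 of the 136 were among them. All 114 kept their sign. DESeq2 gave an adjusted P for 116 of the 136. In the other alternatives, and in the fold changes of DESeq2, all 136 genes kept their sign. Log2 fold changes of called Ptprb and Tjp1 turned to 0.033 and 0.067 with log2(TPM + 1) and 0.035 and 0.069 with log2(TPM + 0.1). Of genes not called, Myh6 and Myh7 turned to 0.037 and 0.054 with library size and to 0.10 and 0.13 with TPM, Myh7 to 0.093 without controls 1 and 4, Ccng1 to 0.042 and 0.043 with TPM, and Hbb-bs to 0.92 with limma voom and 1.06 and 1.18 with TPM. The causes were not tested. With the replicate number as a block (replicate block) the counts were 112 and 586, and 542 in place of 802 between 6 and 2 weeks. Over all genes tested, same-numbered controls and irradiated mice correlated at -0.0154 to 0.106, and 1 of 6 correlated best with its own number. The numbers still share a split: counts of Y-linked genes were at most 19 in mice 1 to 3 of every group and at least 1754 in mice 4 to 6. With DESeq2, genes without an adjusted P were left out. Genes below about 0.25 CPM rest on few counts.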

Other observations

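Actin and its binding proteins, listed after values were seen, were called higher in 18 of 42 tested genes and lower in none, with a median log2FC of 0.30 beside -0.0015 for all genes tested, and 14 of the 42 had groups that did not overlap. Actb, the cytoplasmic actin, was at 528 to 863 CPM in controls (median 741) and 917 to 1075 CPM at 2 weeks (median 1032), a log2FC of 0.50 (SE 0.10, adjusted P = 0.00887). Fscn1, which bundles filaments, was at 32.9 to 46.9 CPM in controls and at 54.0 to 90.8 CPM at 2 weeks (log2FC 0.83, adjusted P = 0.000687). Arpc1b, of the complex that branches filaments, and Actn4, a non-muscle alpha-actinin, had log2FC values of 0.55 and 0.53 (adjusted P = 0.000503 and 0.000848). Coro1a, a coronin of leukocytes, was at 3.42 to 9.51 and 10.9 to 13.4 CPM (1.01, adjusted P = 0.00395). Every irradiated mouse lay above every control for these 5 genes, and between 15 and 19 of the list were called with single mice left out.

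Genes of necroptosis, a form of programmed lysis, were listed in the same way, and 5 of 8 tested were called higher (62.5%, beside 3.09% of all genes tested). The kinases Ripk1 and Ripk3 were at 11.9 to 15.5 and 0.833 to 1.44 CPM in controls and at 16.9 to 19.6 and 1.44 to 2.85 CPM at 2 weeks (log2FC values 0.40 and 0.94, adjusted P = 0.00887 and 0.0114). Mlkl, which opens the membrane, was at 2.22 to 4.56 and 4.45 to 7.16 CPM (0.77, adjusted P = 0.0132), and the inhibitor Cflar at 66.3 to 79.1 and 79.8 to 101 CPM (0.30, adjusted P = 0.0225). Ripk1, Ripk3 and Mlkl kept their calls whichever mouse was left out, while Cflar and Zbp1 did not, and the count of 5 was 3 without control 3, 5 or 6 or mouse 3 at 2 weeks.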
